A study of Mus musculus with 4 samples.

Results

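GABA-A receptors are ligand-gated chloride channels through which most fast inhibition in the cortex runs. Each is a ring of subunits drawn from several gene families. The alpha and beta subunits form the GABA site, a gamma subunit joins them in most receptors at synapses, and the delta subunit takes the gamma position in receptors outside synapses. Those extrasynaptic receptors respond to the low GABA of the extracellular space and carry a steady, tonic inhibition, and they are sensitive to neurosteroids. GABA inhibition is known to shape how visual cortex responds to the loss of an eye's input.

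The 7 subunit genes Gabrd, Gabra5, Gabra4, Gabra2, Gabra3, Gabrb2 and Gabrg1 were taken as a set by name, with earlier results of these data known. Each probe set was used whose only gene symbol in the platform annotation was one of them. This gave 5 probe sets of 5 genes, out of 8252 genes with such a probe set and 12488 probe sets on each array. Gabrd was the 1 extrasynaptic subunit among them. Gabra2, Gabra3, Gabrb2 and Gabrg1 were set beside it as synaptic subunits. No probe set carried Gabra4 or Gabra5 as its only symbol, so these extrasynaptic subunits were not analysed here. Each of the 5 genes had a single probe set, so no gene could be compared across probe sets.

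The RNA came from visual cortex of wild-type C57Bl6 mice, 5 in the study, all kept in the dark from birth until postnatal day 42. On that day 1 eye was removed, and the mice were killed on postnatal day 46 after 4 days in a light-dark cycle. Deprived cortex lay contralateral to the removed eye and non-deprived cortex ipsilateral to it, so both sides had shared the dark rearing, the surgery and the later light. Each side gave 2 pooled samples, each read on 1 single-colour array. How the mice were shared between the pools was not stated, so p-values measure the spread between these 4 arrays.

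Values are MAS5 signals in arbitrary units, where a higher signal means more RNA bound to the probe set. Of the 5 subunit probe sets, 3 were bright enough for the test, Gabrd, Gabra2 and Gabrb2. Gabra3 and Gabrg1 had mean signals below the 40th percentile of all probe sets, 142.9, and are given by their signals alone. In cortex taken in bulk, fewer cells of a type and less RNA per cell cannot be told apart.

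Gabrd, the delta subunit of extrasynaptic receptors, had the higher signal on both deprived arrays. Of the set's synaptic subunits, Gabra2, Gabra3, Gabrb2 and Gabrg1, none was higher on both, and Gabra3 and Gabrg1 were too dim to test. Gabrb1, a beta subunit outside the set, was also higher on both, by a smaller amount. The Gabrd signal was 399.6 and 473.8 on deprived arrays 1 and 2, against 131.6 and 173.1 on non-deprived arrays 1 and 2. The groups did not overlap, and the lowest deprived signal was more than 2 times the highest non-deprived one. The mean signal was 437 ± 52.5 in the deprived group, against 152.3 ± 29.3 in the non-deprived group (SD, n = 2 each), a ratio of 2.87. Both means were above the brightness filter of 142.9, so Gabrd did not enter the test through 1 group alone. The non-deprived mean was only just above it, and the signal of non-deprived array 1, 131.6, was below it.

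In limma's fit over 7458 probe sets the log2 fold change of Gabrd was 1.23 ± 0.36 (SE), with a 95% interval from 0.44 to 2.02. This is a 2.34-fold difference on the log2(signal + 60.6) scale, which draws dim probe sets towards 0. The unadjusted p was 0.0055 and the adjusted p 0.49, so Gabrd did not pass the threshold of 0.05. No subunit passed it, and of all tested probe sets 0.107% did, each of them lower in deprived cortex. An exact two-sided permutation test of Gabrd gave p = 0.333, the smallest that 2 arrays against 2 allow.

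Among the 7458 tested probe sets, 12 had a log2 fold change at least as high as that of Gabrd, itself included. The subunits were chosen with earlier results of these data known, so this rank and the share that follows are descriptions and not tests. When each deprived array was set against each non-deprived one, Gabrd was at least 1.5-fold higher in all 4 pairs, a mark that 0.322% of tested probe sets reached upwards. The pairwise differences in log2 signal were 1.26 for the replicate 1 arrays and 1.19 for the replicate 2 arrays. Across replicate numbers they were 0.98 for deprived array 1 over non-deprived array 2 and 1.48 for deprived array 2 over non-deprived array 1. Replicate arrays of a group lay close together for Gabrd, with a pooled within-group SD of 0.18 on the log2 scale. The median was 0.32 over the 4216 probe sets whose mean signal lay within 2-fold of that of Gabrd.

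**Figure D1:**
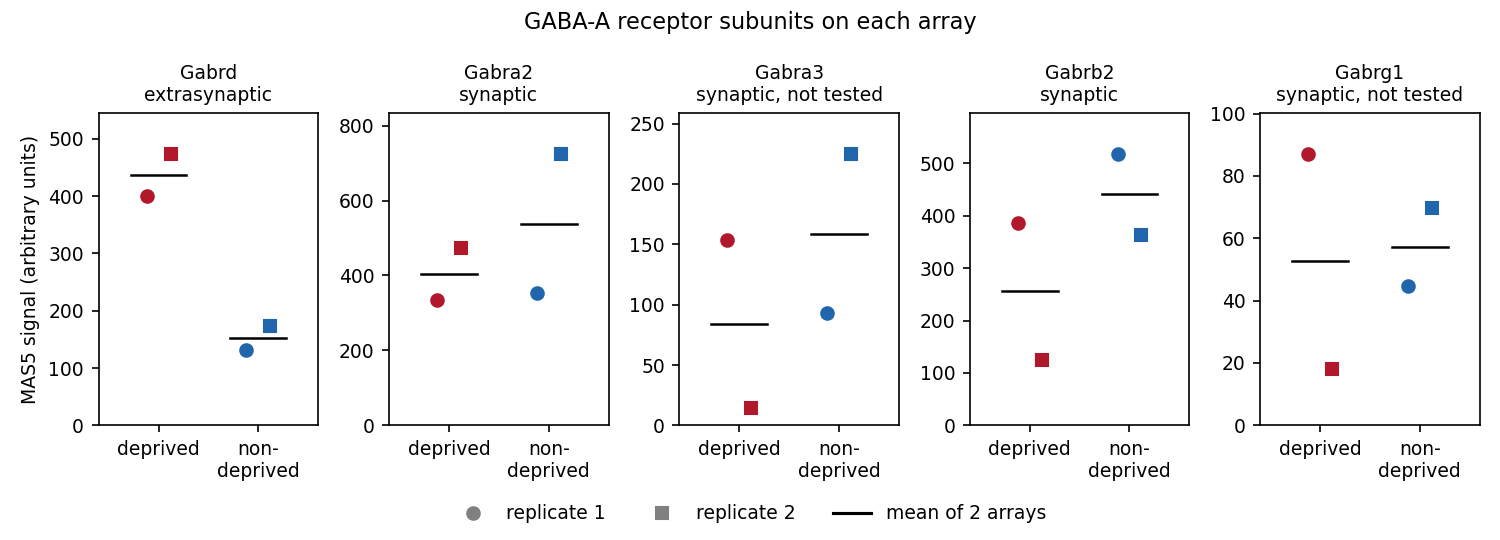
MAS5 signal (arbitrary units, linear axis from 0) of the 5 subunit probe sets on each array, deprived left and non-deprived right. Circles are replicate 1, squares replicate 2 and bars the mean of 2 arrays. Gabrd, at 399.6 and 473.8 against 131.6 and 173.1, is the 1 subunit whose groups do not overlap.

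Of the synaptic subunits, Gabra2 encodes an alpha subunit found at synapses on the cell body and the axon initial segment of cortical neurons. Its signal was 334.6 and 474.2 on deprived arrays 1 and 2, against 352.3 and 724.9 on non-deprived arrays 1 and 2. The groups overlapped, and in each group array 2 was the higher. Mean signals were 404 ± 98.7 in the deprived group, against 539 ± 263 in the non-deprived group (SD, n = 2 each). The log2 fold change was -0.31 ± 0.33 (SE), with a 95% interval from -1.04 to 0.42 and an adjusted p of 0.999 in limma. The sign rested on 1 array, since without non-deprived array 2 the log2 fold change was 0.15.

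Gabrb2, a beta subunit that is common in adult cortex and also occurs in receptors with delta, had the lowest signal on deprived array 2. Its signal was 386.8 and 124.4 on deprived arrays 1 and 2, against 518.1 and 363.2 on non-deprived arrays 1 and 2. The signal of deprived array 1 was just above that of non-deprived array 2, so the groups overlapped by a small margin. After quantile normalization the signals were 358 and 148 in deprived and 514 and 370 in non-deprived cortex, without overlap. Scaling to a common median also removed the overlap.

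The log2 fold change of Gabrb2 was -0.78 ± 0.42 (SE), with a 95% interval from -1.70 to 0.14, an unadjusted p of 0.088 and an adjusted p of 0.97 in limma. The size of the difference depended on deprived array 2. Leaving out deprived array 1 gave -1.42, with an adjusted p of 0.074. Leaving out deprived array 2 gave -0.15, with an adjusted p of 0.89. The gap between the 2 deprived arrays, 1.27 on the log2 scale, was larger than the difference between the groups.

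Gabra3, an alpha subunit more prominent in young than in adult cortex, was too dim to test. Its signal was 153.7 and 14.5 on deprived arrays 1 and 2, against 92.8 and 225.0 on non-deprived arrays 1 and 2. The deprived signals lay apart by 1.51 on the log2 scale and enclosed that of non-deprived array 1. Its mean over the 4 arrays was the nearest of the subunits to the filter from below, at the 36.5th percentile of all probe sets.

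Gabrg1, a gamma subunit of limited distribution in the brain, was the dimmest of the 5, at the 17.9th percentile. Its signal was 87.1 and 18.0 on deprived arrays 1 and 2, against 44.6 and 69.8 on non-deprived arrays 1 and 2. The deprived arrays held both the highest and the lowest signal. Differences between single arrays ran from -0.73 to 0.49 on the log2 scale, so no direction could be read.

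Deprived array 2 was the lowest of the 4 for Gabrb2, Gabra3 and Gabrg1, and not for Gabrd or Gabra2. Deprived array 2 was also the lowest for 40.6% of all probe sets below the filter and for 27.3% of the tested ones. Non-deprived array 2 was the lowest for 35.0% of those below the filter. Among the tested ones, deprived array 1 was the lowest more often, for 29.0%. Deprived array 2 had the lowest median signal over all probe sets, 189.9, against 246 on deprived array 1, 229.6 on non-deprived array 1 and 209.6 on non-deprived array 2. The part of this lower median in the low signals of Gabrb2, Gabra3 and Gabrg1 was not tested. For Gabrd the lowest array was non-deprived array 1.

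**Figure D2:**
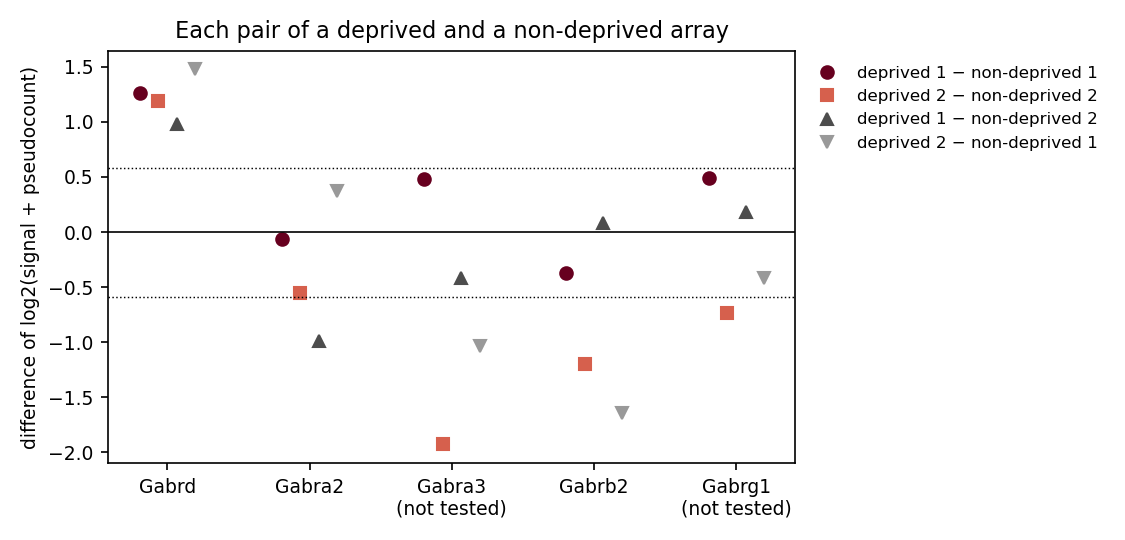
Difference in log2(signal + pseudocount) for the 4 possible array pairs, deprived minus non-deprived, by subunit. Dotted lines mark 1.5-fold. The 4 Gabrd points lie between 0.98 and 1.48, whereas the points of every other subunit fall on both sides of 0.

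Set within arrays against each tested synaptic subunit, the extrasynaptic subunit Gabrd stood higher relative to it on deprived than on non-deprived arrays. The log2 fold change of Gabrd exceeded that of Gabra2 by 1.54 and that of Gabrb2 by 2.01. The difference in log2 signal between Gabrd and Gabra2 was 0.22 and -0.0011 on deprived arrays 1 and 2, against -1.10 and -1.75 on non-deprived arrays 1 and 2. That between Gabrd and Gabrb2 was 0.041 and 1.53 on deprived arrays, against -1.59 and -0.86 on non-deprived arrays. The 2 probe sets of a pair bind differently, so only the change of such a difference between arrays can be read, and neither difference overlapped between the groups. The exact two-sided permutation test gave p = 0.333 for both, the smallest possible with 4 arrays, so this test could not decide whether the subunits differed. Gabrd alone was higher by 0.98 to 1.48 in the 4 array pairs, while Gabra2 and Gabrb2 went either way. Both contrasts therefore restate the Gabrd difference in large part. How many of all probe sets part from Gabrd in this way was not counted.

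Over the 3 tested subunits, 1 was higher and 2 were lower, with a median log2 fold change of -0.31, beside 0.0015 over all tested probe sets. Gabrd was the 1 subunit that was higher at an unadjusted p under 0.05, which 1.77% of all tested probe sets were. It was also the 1 subunit whose deprived arrays both lay above the non-deprived ones, as they did for 15.1% of all tested probe sets. With so few subunits tested, these counts say nothing of the family as a whole.

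Many subunit genes lie in clusters in the mouse genome, and of the chromosome 5 cluster Gabra2, Gabrg1 and Gabrb1 were measured. Gabrg1, Gabra2, Gabra4 and Gabrb1 follow each other on chromosome 5, with 1 other coding gene, Cox7b2, among them in the RefSeq annotation. Gabrb2 lies on chromosome 11, Gabra3 lies between Gabre and Gabrq on chromosome X, and Gabrd lies on chromosome 4 beyond the rho subunit genes Gabrr2 and Gabrr1. In the chromosome 5 cluster, the beta subunit gene Gabrb1 had 1653.8 and 1717.1 on deprived arrays, against 1385.7 and 1457.7 on non-deprived arrays. It was higher on both deprived arrays, by a small amount, while Gabra2 overlapped.

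Of the 12 other GABA-A subunit genes listed, 5 had a probe set of their own and 2 were bright enough to test. None passed. Gabrb1 had a log2 fold change of 0.24 ± 0.17 (SE) and Gabrg3, a gamma subunit, 0.19 ± 0.51, each with an adjusted p of 0.999 in limma. Gabrg3 had 338.9 and 125.3 in deprived and 230.4 and 134.2 in non-deprived cortex, with deprived array 1 the highest and deprived array 2 the lowest.

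The 3 genes nearest to Gabrd over the 4 arrays were Pnmt, Cdk5rap3 and Mtcp1, by the Euclidean distance between centred log2 signals. Pnmt, which encodes the enzyme that makes adrenaline from noradrenaline, lay at a distance of 0.30, with 404.9 and 529.8 in deprived and 197.3 and 213.9 in non-deprived cortex. Cdk5rap3 lay at 0.35 and Mtcp1 at 0.38, and their log2 fold changes were 1.07 and 0.98. None of the 3 passed in limma (adjusted p from 0.59 to 0.94). The nearest to Gabra2 was Snrp1c-ps2, at 0.13, and the nearest to Gabrb2 was Lgals4, at 0.15. A likeness over 4 arrays, picked from among all tested probe sets, describes these arrays alone.

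Genes that act on GABA-A receptors or on GABA signalling were read from 7 lists, with each gene at its brightest tested probe set. Of 85 genes on these lists, 56 had a probe set of their own, 48 were tested and 0 passed in limma. The unadjusted p was under 0.05 for 5 of them, all lower in deprived cortex, which is 10.4% of the tested genes beside 5.43% of all tested probe sets. Most of all tested probe sets at that p in limma were lower too, since 132 of 405 were higher. With the replicate number as a block, 2 listed genes passed, Nsf and Src, and 40 of all tested probe sets did (0.536%).

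Scaffold and traffic genes of the receptor had a median log2 fold change of 0.027 over 14 tested genes, 8 higher and 6 lower. Gephyrin (Gphn), the scaffold under synaptic GABA-A receptors, had 330.2 and 596.9 in deprived and 588.1 and 473.3 in non-deprived cortex, with overlap. Gabarap, a carrier that binds gamma subunits, was the highest of the list at 0.16 ± 0.16 (SE). Nsf, the ATPase that takes SNARE complexes apart and binds beta subunits, was the lowest at -1.12 ± 0.39. Its adjusted p was 0.67, or 0.012 with the block. Its signal was 1123.2 and 3375.8 on deprived arrays, against 3252.9 and 5706.9 on non-deprived arrays, so that array 2 was the higher in each group.

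For kinases and phosphatases that act on the receptors the median over 12 tested genes was -0.093, with 4 higher and 8 lower. Prkacb, a catalytic subunit of protein kinase A, was the highest at 0.27 ± 0.19 (SE), and the tyrosine kinase gene Src the lowest at -1.96 ± 0.44. Src had 62.8 and 73.9 on deprived arrays, against 419.6 and 460.6 on non-deprived arrays, without overlap. The share of all tested probe sets that were lower without overlap was not counted. Both deprived signals of Src lay below the filter of 142.9 and near the added 60.6, so Src entered the test through the non-deprived group alone. Its adjusted p was 0.21 in limma, or 0.047 with the block. Src, Camk2a and the calcineurin subunit gene Ppp3cb were the 3 of this list at an unadjusted p under 0.05.

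The 5 tested genes of GABA synthesis, release and uptake had a median of -0.066. Gad2, a GABA-making enzyme, was the highest at 0.27 ± 0.52 (SE), and Slc32a1, the vesicular GABA transporter, the lowest at -0.30 ± 0.17. Slc32a1 had 2154.6 and 2555.5 in deprived and 3066.9 and 2757.3 in non-deprived cortex. Its groups did not overlap, with deprived lower, and its adjusted p was 0.98 in limma. How many of all tested probe sets were lower without overlap was not counted. The 3 tested genes of GABA-B receptors and their effectors ran from -0.42 ± 0.31 for the potassium channel gene Kcnj9 to 0.13 ± 0.53 for Kcnj6, with a median of 0.13.

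Chloride transport sets the direction of current through GABA-A receptors. Its 8 tested genes had a median of -0.18, 3 higher and 5 lower. Slc12a5, the neuronal exporter KCC2, was the lowest at -0.85 ± 0.31 (SE), with an unadjusted p of 0.019 and an adjusted p of 0.71 in limma. Its signal was 389.1 and 208.4 on deprived arrays, against 558.4 and 573.8 on non-deprived arrays, without overlap. The share of all tested probe sets lower in this way was not counted. Slc12a2, the importer NKCC1, was the highest of the list at 0.20 ± 0.18 and did not pass.

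Neurosteroids act on delta-containing receptors, and 4 genes of their synthesis and its regulation were tested, with a median of 0.094. Single arrays set that median, which was -0.20 without deprived array 1 and 0.59 without deprived array 2. Cyp11a1, the enzyme that starts steroid synthesis from cholesterol, was the highest at 0.85 ± 0.46 (SE) and had an adjusted p of 0.97 in limma. Its signal was 324.9 and 252.3 on deprived arrays, against 186.3 and 89.9 on non-deprived arrays. The groups did not overlap, with deprived higher, as in 15.1% of all tested probe sets. The mean of its non-deprived signals lay below the filter of 142.9, so Cyp11a1 entered the test through the deprived group. Tspo, a cholesterol-binding protein of the outer mitochondrial membrane, was the lowest at -0.13 ± 0.18.

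**Figure D3:**
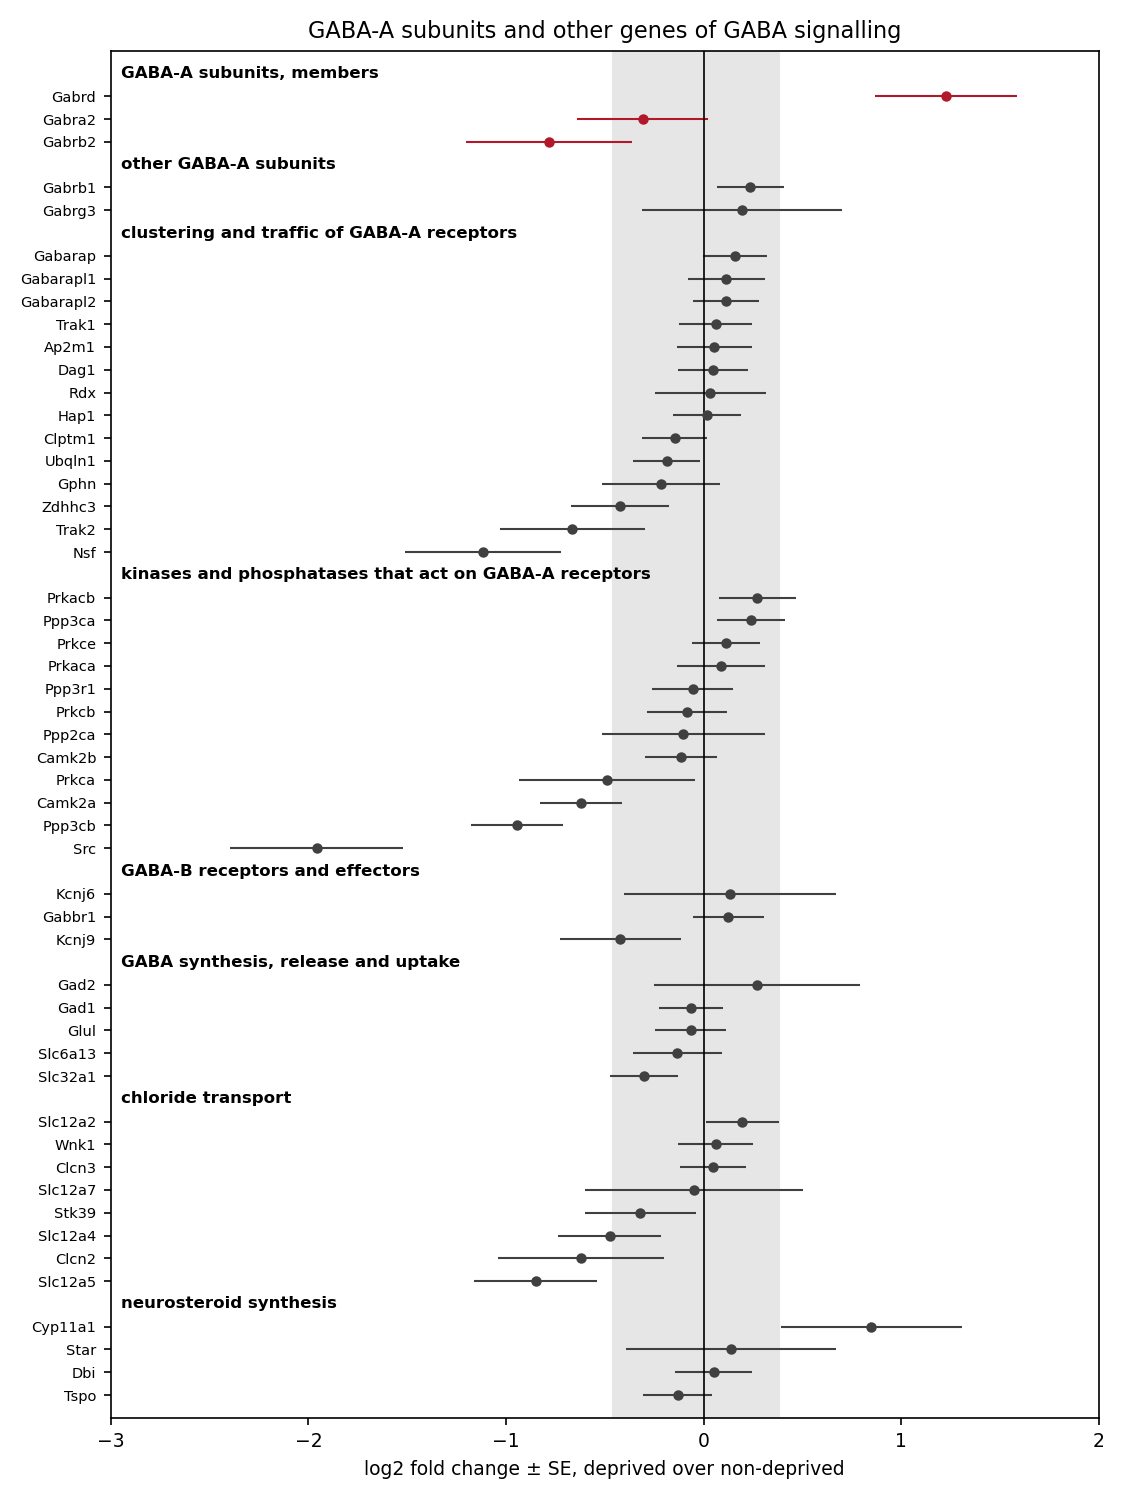
Log2 fold change, deprived over non-deprived, with SE from limma, of the tested subunit probe sets (red) and of other genes of GABA signalling by list (dark). The grey band holds the middle 80% of all tested probe sets, from -0.46 to 0.38. Gabrd, at 1.23, lies to the right of the band, and Gabrb2, Src, Nsf, Ppp3cb and Slc12a5 are among those to its left.

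Gabrd is also strongly expressed in regions next to the visual cortex or elsewhere in the brain, namely thalamus, dentate gyrus, striatum and cerebellum, and in some cortical interneurons. Markers of these sources were read beside it. Cerebellar granule cells pair delta with Gabra6, and both Gabra6 probe sets were too dim to test. They had 18.2 and 15.3 in deprived and 24.4 and 4.6 in non-deprived cortex at the dimmer probe set, and 61.4 and 132.7 against 26.1 and 161.2 at the other, with overlap in both.

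For thalamus, 6 of 8 markers were tested, with a median log2 fold change of 0.10. Their summed signal ran from 2816.1 to 4058.6 on deprived and from 3011.5 to 3090.6 on non-deprived arrays. The listed thalamic markers ran from Gbx2, with at most 34.1 on any array, to Prkcd, with 1132.3 on deprived array 1 and 530.8 on deprived array 2, against 630.5 and 554.0 on non-deprived arrays. A second, dimmer Prkcd probe set was lower without overlap, with 402.9 and 395.6 on deprived and 463.1 and 462.4 on non-deprived arrays. A dim second probe set of Lef1 had 89.9 and 103.7 on deprived arrays, against 32.3 and 29.8 on non-deprived arrays, without overlap. The brighter Lef1 probe set gave -0.10. The median of the thalamic list was -0.11 without deprived array 1 and 0.32 without deprived array 2. For hippocampus, 5 of 8 were tested, with a median of 0.19 and summed signals from 1402.5 to 1901.4 on deprived and from 1659.4 to 1673.6 on non-deprived arrays. Prox1, the marker of dentate granule cells, was too dim to test, with 111.7 and 80.7 on deprived arrays, against 37.6 and 11.5 on non-deprived arrays. Its groups did not overlap, with deprived higher, as in 15.1% of all tested probe sets. That share was not counted for probe sets below the filter, where Prox1 lay. Within each group Prox1 was higher on array 1 and Gabrd on array 2. Of the tested hippocampal markers 4 were higher and 1, Wfs1, was lower at -0.23.

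For striatum, 4 of 10 were tested, with a median of 0.10 and summed signals from 3521.1 to 3725.3 on deprived and from 3291.6 to 3454.2 on non-deprived arrays, without overlap. No neighbouring-region marker passed the threshold. The part of neighbouring tissue in the Gabrd signal was not tested.

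Of the 60 tested markers of cell types and regions, 0 passed in limma, while 1 was higher and 3 were lower at an unadjusted p under 0.05. That is 6.67% of them, near the 5.43% of all tested probe sets. Excitatory neuron markers had a median of -0.12 over 6 of 8, with summed signals from 19284.5 to 23817.6 on deprived and from 21506.8 to 23722.3 on non-deprived arrays. The 6 tested genes, Tbr1, Neurod2, Neurod6, Nrgn, Slc30a3 and Camk2a, had signals of 178 or more on all 4 arrays at their brightest probe sets. Of these 1 was higher and 5 were lower, and Camk2a gave -0.62 ± 0.21 (SE) with an adjusted p of 0.59 in limma. A dimmer Camk2a probe set, with 71.6 and 294.1 on deprived and 581 and 754.6 on non-deprived arrays, gave -1.74 ± 0.43. The adjusted p of that probe set was 0.29 in limma, or 0.032 with the block. Inhibitory neuron markers had a median of -0.12 over 12 of 13, with summed signals from 27267.6 to 33186.4 on deprived and from 31887.2 to 35827.0 on non-deprived arrays. Astrocyte, microglia and endothelial markers had medians of -0.030, 0.057 and 0.053 over 7 of 9, 7 of 9 and 4 of 7. Choroid plexus and red blood cell markers, with 2 tested genes each, had medians of -0.029 and 0.13.

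Oligodendrocyte and myelin markers had a median of 0.27 over 6 of 8, and Mobp among them differed by probe set. Mobp stood at 0.47 at its brightest probe set, which enters the median, and at -0.14, -0.59 and -0.64 at its other 3. Their summed signal ran from 13402.5 to 14433.9 on deprived and from 11152.0 to 12106.9 on non-deprived arrays, without overlap. Their part in the higher Gabrd signal was not tested. RNA integrity was read from the 5′ over 3′ signal ratio of control probe sets. For actin it was 0.504 ± 0.057 in the deprived group, against 0.635 ± 0.0039 in the non-deprived group (SD, n = 2 each). For Gapdh it was 0.717 ± 0.040 in the deprived group, against 0.971 ± 0.136 in the non-deprived group. Both ratios were lower on both deprived arrays, and their part in the differences of Gabrd and Gabrb2 was not tested.

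**Figure D4:**
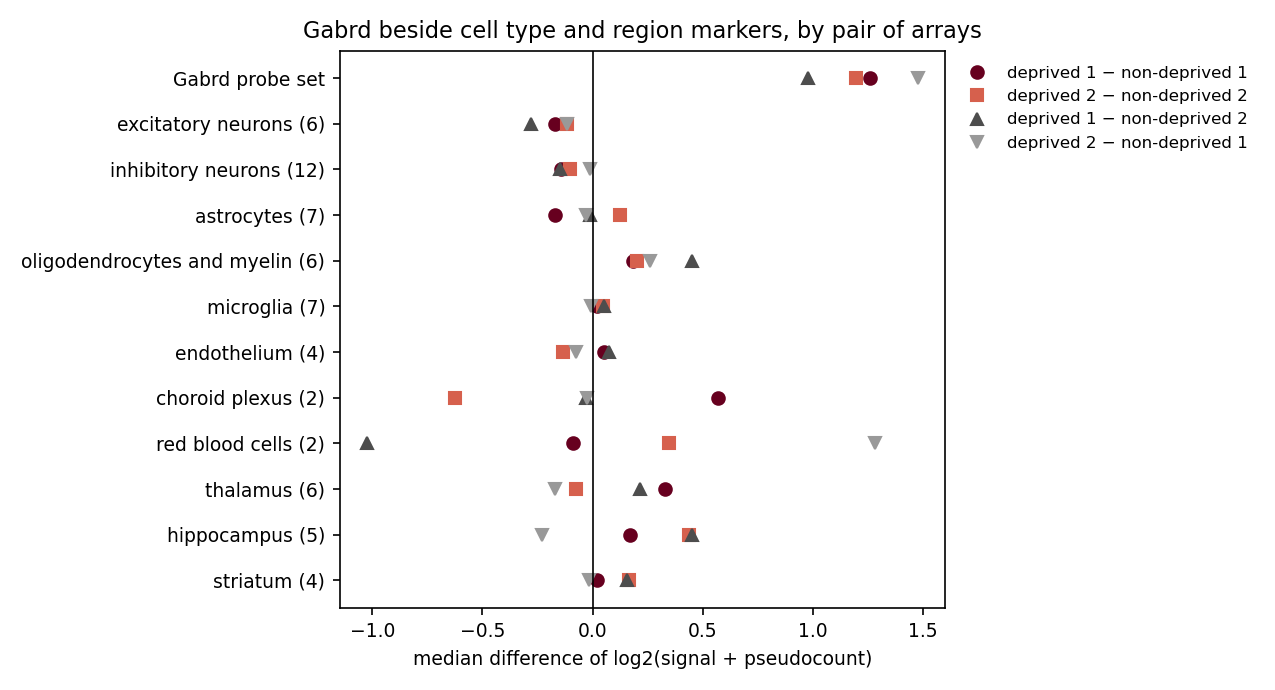
Difference in log2(signal + pseudocount) for the 4 array pairs, deprived minus non-deprived, for the Gabrd probe set (top) and as the median over the tested markers of each cell type or region (number of genes in brackets). The Gabrd points lie between 0.98 and 1.48, and of the marker medians only those of red blood cells, which rest on 2 genes, go beyond 1 in either direction.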

How the data were processed

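RNA from deprived and non-deprived visual cortex was measured on 4 single-colour arrays, 2 per side. The authors deposited linear intensities, 1 MAS5 signal per probe set, and the submitters' processing notes name MAS5 without a version. Sources used here give neither the scaling target nor the detection calls. Symbols came from the platform annotation, updated through Entrez identifiers for 10839 of 10855 probe sets with a single symbol.

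Arrays were scaled to a common 2% trimmed mean, 60.6 (the 20th percentile of mean signals) was added, and log2 was taken. Control probe sets and those under a mean signal of 142.9 (the 40th percentile) were left out, which kept 7458. limma 3.58.1 in R 4.3.3 (lmFit, eBayes with trend) compared deprived with non-deprived, with Benjamini-Hochberg adjustment over all 7458. The residual degrees of freedom were 2, or 11.6 together with the prior. The small number of arrays limits precision.

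The series' design text speaks of added cross-animal comparisons, which may mean that same-numbered arrays share animals, but no label says so. Over the 7458 tested probe sets, deviations of array 1 from its group mean correlated between the groups with r = 0.27. With 2 arrays per group, the deviations of array 2 are the same values with the opposite sign, so they give the same r. What this correlation came from was not tested. The replicate block was therefore run only as an alternative. It left 1 residual degree of freedom. Other alternatives changed the scaling, pseudocount, filter, variance prior or arrays.

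The subunits and lists were chosen with earlier results of these data known. All subunit probe sets were named, as were the extremes of each list and the nearest patterns. Src, Camk2a, Ppp3cb, Gphn, Mobp, Prox1, Gbx2, Prkcd, Lef1, the excitatory neuron markers and the Gabra6 probe sets were added after their values were seen. Gene order on the chromosomes was read from the RefSeq annotation, and distances between genes were not analysed.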

Additional observations from a re-analysis of the deposited data

How the results depend on the processing

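No subunit passed the threshold under any of the 13 alternatives. The log2 fold change of Gabrd stayed above 0 in the 12 that tested it, from 0.97 with a pseudocount at the 40th percentile to 1.52 with a pseudocount of 1 (adjusted p from 0.16, with the replicate block, to 1.0). A filter at the 60th percentile left Gabrd out. Gabrb2 stayed below 0, from -1.42 to -0.15. Gabra2 ran from -0.773 to 0.155 with 1 array left out, the sign turning without non-deprived array 2, and with it the median of the subunits, which ran from -0.559 to 0.155 with 1 array left out. The count of subunits without overlap, 1, became 2 after quantile normalization and with a common median, 0 with the 60th percentile filter, and 2 with any 1 array left out, where fewer arrays had to separate. These counts take either direction. The share of all probe sets without overlap was not counted under the changed settings, so they cannot be read as a result about the subunits. Over all probe sets the count of 8 became 1 after quantile normalization, 3 with a common median, 40 with the replicate block and 0 in limma without the variance trend, which left 390 at an unadjusted p under 0.05. With 1 array left out it ran from 5 to 90, under the assumption that a single array has the spread of the other group. Of the listed genes, 2 passed with the replicate block in place of 0, and 0 to 3 with 1 array left out. The median turned sign with 1 array left out in 14 of 18 lists, and the exceptions were chloride transport and the excitatory neuron, inhibitory neuron and oligodendrocyte markers. The block changed no call of a subunit. Apart from the filter and the fewer arrays, the cause was not tested. The 2 arrays per group limit what could be detected.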
